A study of Mus musculus with 9 samples.

Results

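The genes described are 10 genes of insulin and insulin-like growth factor (IGF) signalling, chosen by name: Igf1, Igf1r, Insr, Irs1, Irs2, Igfbp3, Igfbp4, Igfbp5, Igfbp6 and Igfbp7. All 10 were among the 13890 genes counted, and all 10 passed the filter on low counts, which left 13364 genes to test. Heart mRNA of 9 male NSG mice (NOD-scid/IL2Rg null, immunodeficient, 8 weeks old at the start) was sequenced, with 3 animals in each of 3 groups. S animals (numbers 2, 3 and 5) had sham surgery and weekly saline. Animals labelled T (numbers 11, 12 and 15) received HCT116 cells, a human colorectal cancer line, into the spleen, and weekly saline. A + T animals (numbers 20, 21 and 22) received the same cells and weekly ACVR2B/Fc, a soluble receptor that binds activins, myostatin and related ligands. Sham animals given ACVR2B/Fc were part of the study and were not analysed here. Hearts were taken about 3 weeks after the intervention. NSG mice lack mature lymphocytes, which limits them as a model to hosts without adaptive immunity.

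A doubt about the labels has to be stated first. For the genes that the study lists, the differences between the libraries labelled T and S match its column for sham animals given ACVR2B/Fc, not its column for tumour hosts. Whether the sample labels or the headings of that list are exchanged cannot be told apart here. Every direction given below for T is therefore that of the libraries labelled T. Markers of cardiomyocytes were high in all 9 libraries, as the label heart implies (summed level 51727 to 81589 counts scaled to the library total, CPM). Scgb1a1, a secretory protein of airway cells, was at 79.9 CPM in the library of T animal 12 and at 1078 CPM in that of A + T animal 22, against 0 to 1.37 CPM in the other 7 libraries. Where leaving out both libraries changed a call or moved a difference of the 10 genes by over 1.5-fold, the value without them is given too.

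IGF-1 is a growth hormone-dependent peptide made by the liver and also locally by many tissues, including the heart. It acts through the IGF-1 receptor, a tyrosine kinase closely related to the insulin receptor, and both receptors pass their signal to PI3-kinase and Akt through the docking proteins IRS-1 and IRS-2. Secreted IGF-binding proteins hold IGFs in the extracellular space, prolong their life and control how much reaches the receptors, and in the heart this pathway is known for its part in growth and survival of cardiomyocytes.

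Of the 10 genes, 9 had a promoter in the RefSeq table used (GRCm38.p6), all but Insr. The 250 bases before the start of Igf1r, Igfbp4 and Igfbp7 are shown because these genes differed between T and S in every fit in which 1 animal was left out. Capitals mark a GC box (GGGCGG, or CCGCCC on the other strand) or a TATA box (TATAAA, or TTTATA on the other strand).
Igf1r, chr7:67952007-67952256, plus strand: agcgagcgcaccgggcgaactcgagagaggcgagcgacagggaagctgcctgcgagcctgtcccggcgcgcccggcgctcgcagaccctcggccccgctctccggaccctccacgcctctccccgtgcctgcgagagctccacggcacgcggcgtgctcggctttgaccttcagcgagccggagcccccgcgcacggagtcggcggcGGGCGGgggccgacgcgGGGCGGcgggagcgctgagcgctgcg
Igfbp4, chr11:99040994-99041243, plus strand: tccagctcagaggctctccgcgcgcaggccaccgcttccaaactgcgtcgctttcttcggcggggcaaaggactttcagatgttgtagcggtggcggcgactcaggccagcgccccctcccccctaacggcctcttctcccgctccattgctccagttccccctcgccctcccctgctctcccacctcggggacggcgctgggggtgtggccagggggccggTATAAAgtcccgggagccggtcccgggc
Igfbp7, chr5:77408046-77408295, minus strand: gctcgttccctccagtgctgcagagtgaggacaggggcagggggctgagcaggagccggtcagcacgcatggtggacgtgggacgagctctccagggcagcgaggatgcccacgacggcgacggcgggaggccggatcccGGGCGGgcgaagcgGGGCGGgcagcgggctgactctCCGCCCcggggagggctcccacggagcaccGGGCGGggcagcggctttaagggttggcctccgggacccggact
The Igf1r promoter was 77.6% G and C, with 42 CG dinucleotides and 2 GC boxes and no TATA box. The Igfbp7 promoter held 4 GC boxes in 74.0% G and C, and the Igfbp4 promoter a TATA box and no GC box in 69.2% G and C. Over all 32817 promoters of the same length, the median was 52.4% G and C with 6 CG dinucleotides, 32.7% held a GC box and 12.4% held a TATA box. Both adaptor genes, Irs1 (2) and Irs2 (1), also held GC boxes. None of the 9 promoters held the FOXO core GTAAACA, the cyclic AMP response element TGACGTCA or the CAGA box CAGACA on either strand, which were found in 3.16%, 1.55% and 17.1% of all promoters. The promoters of Igf1 and Igfbp6 were less rich in G and C, at 52.8% and 49.6%. Gene positions in GENCODE M21 (GRCm38) were chromosome 10 from 87858265 to 87937042 for Igf1 and chromosome 8 from 3122061 to 3279617 for Insr, and Igfbp5 and Irs1 both lie on the minus strand of chromosome 1. The Igf1 promoter (87860861 to 87861110) lies inside that span of Igf1, so it precedes a start within the gene. The Igf1r promoter ends before the GENCODE start at 67952827, as the 2 sources place the start of Igf1r differently. Counts covered whole genes, so transcripts of different starts were not told apart.

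Levels of different genes were compared on the deposited log2 scale, which is divided by gene length. In S hearts, binding proteins stood highest on that scale. Igfbp7, which binds IGFs weakly and is found in vascular basement membrane, led at 6.54 ± 0.0178 (mean ± SD, n = 3), followed by Igfbp5 at 6.41 ± 0.106 and Igfbp4 at 6.25 ± 0.0369. The insulin receptor gene Insr came next at 4.82 ± 0.120, with Igfbp6 at 4.71 ± 0.0403, and the ranges of these 2 genes overlapped. Igfbp3 stood at 3.93 ± 0.206. The adaptors, the IGF-1 receptor and the ligand were lowest, with Irs1 at 2.78 ± 0.150, Irs2 at 2.47 ± 0.783, Igf1r at 2.06 ± 0.141 and Igf1 at 1.89 ± 0.175. Neighbours among these last 4 overlapped in range.

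**Figure D1:**
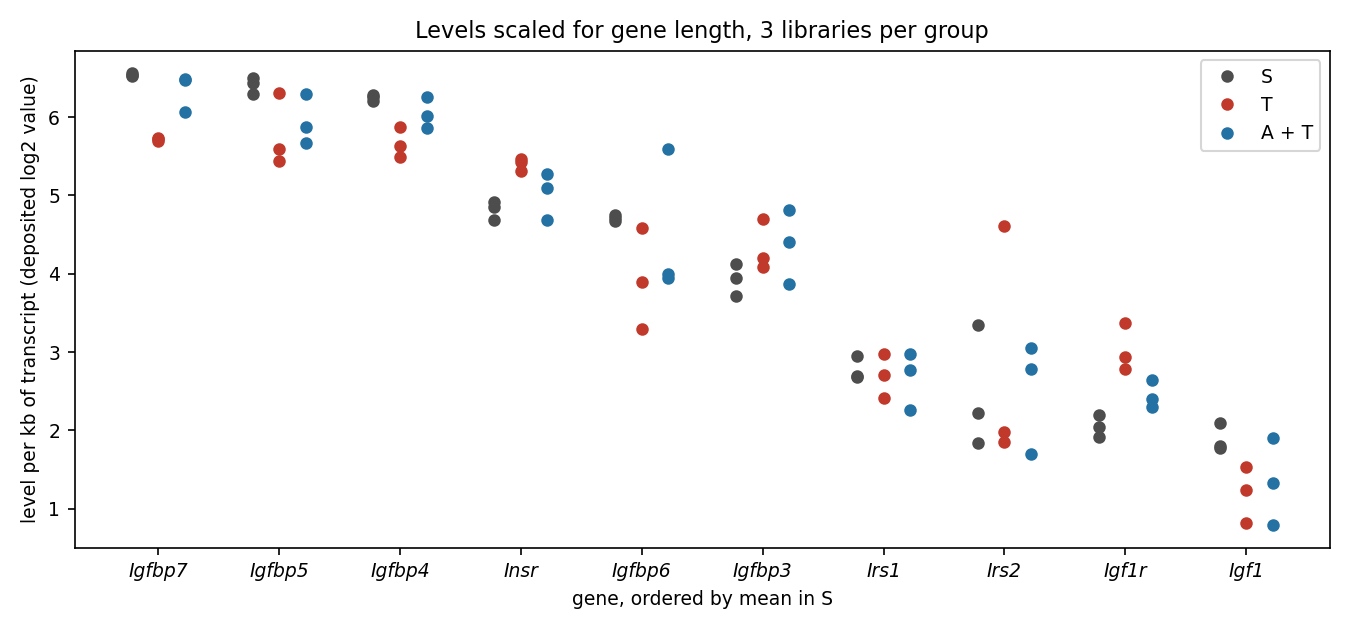
Deposited log2 level per gene length of the 10 genes in each library of S, T and A + T (1 point a library, 3 animals a group), with genes ordered by their mean in S. In S, Igfbp7 is highest (6.54) and Igf1 lowest (1.89), and Irs2 has the widest spread.

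T vs. S asks what differed in hearts labelled as tumour bearing. Of the 10 genes, 4 had an adjusted P-value under 0.05 in the quasi-likelihood test of edgeR, with 2 higher and 2 lower in T, against 21.2% of all 13364 genes tested (1371 higher and 1466 lower). Both receptors were higher, with Igf1r 1.99-fold and Insr 1.49-fold higher, while the binding proteins Igfbp4 and Igfbp7 were lower, the latter 1.77-fold. In whole heart RNA, fewer cells of a type and less RNA per cell cannot be told apart. The groups did not overlap for 6 of the 10, against 42.6% of all genes. The median log2 fold change of the 10 was -0.33 and that of all genes was -0.00. Before adjustment, 6 of the 10 had a P-value under 0.05, against 35.4% of all genes, and 3 of these (Igf1, Igf1r and Igfbp7) also differed by at least 1.5-fold, the pair of limits that the study set, against 14.2% of all genes. With 3 animals a group, each P-value sets a difference between groups against the spread between animals within groups, estimated over all 9 libraries. It rests on these few animals only.

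A + T vs. T asks what differed with ACVR2B/Fc among animals labelled as given HCT116 cells. It shares its T libraries with T vs. S, so the values of both are set side by side and not taken as independent. Here 2 of the 10 passed the adjusted threshold, Igfbp7 higher and Igf1r lower in A + T, against 5.88% of all genes tested (3.09% higher and 2.79% lower). Unadjusted, 4 of the 10 had a P-value under 0.05 (22.4% of all genes), and 2 of them reached 1.5-fold as well (8.10%). The groups did not overlap for 3 of the 10, against 25.4% of all genes. The median log2 fold change was 0.10 for the 10 and 0.01 for all genes. The remaining comparison, A + T vs. S, also shares its libraries with the others, and none of the 10 passed in edgeR or in DESeq2, against 8.31% of all genes in edgeR, and 1 gene (Igf1r) had an unadjusted P-value under 0.05 (26.1% of all genes), at a fold below 1.5 (8.91% of all genes reached both limits). The groups did not overlap for 2 of the 10, against 32.4% of all genes, and the median log2 fold change was -0.04 for the 10 and 0.00 for all genes.

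**Figure D2:**
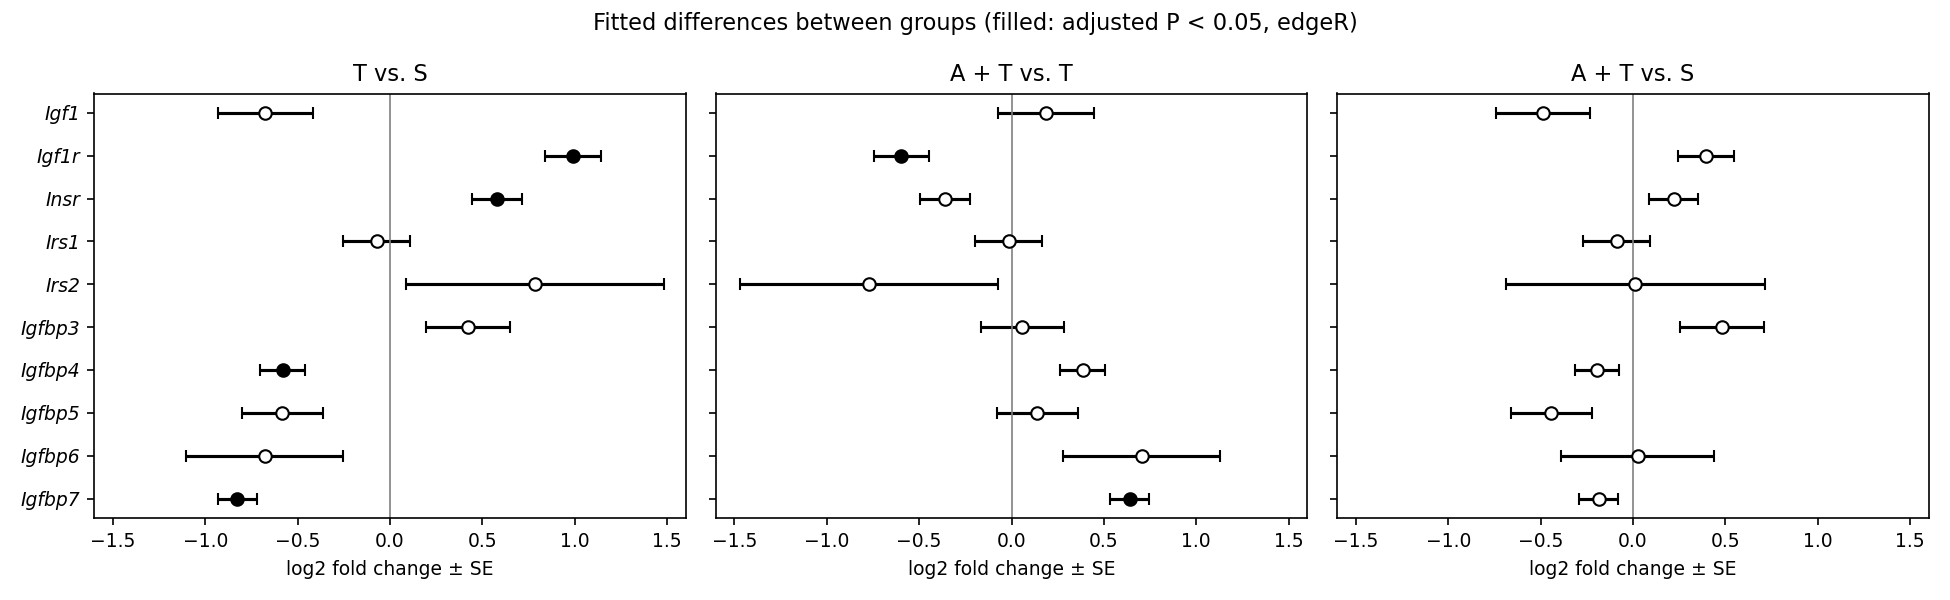
Log2 fold change of each of the 10 genes in the 3 comparisons (1 panel each), with bars of 1 standard error from edgeR's quasi-likelihood fit of all 9 libraries. Filled points pass an adjusted P-value under 0.05. Igf1r is highest (0.99) and Igfbp7 lowest (-0.83) in T vs. S, and both have the opposite sign in A + T vs. T.

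Igf1, the ligand, was at 26.9, 27.3 and 33.5 CPM (scaled by TMM, edgeR's normalization, as are all CPM of single genes below) in S, at 13.7, 22.7 and 18.4 in T, and at 29.3, 19.6 and 13.5 in A + T. Every T library lay below every S library, while A + T overlapped both. The log2 fold change was -0.67 ± 0.26 (SE) in T vs. S, which missed the threshold in edgeR's quasi-likelihood test (adjusted P = 0.0861). It passed in DESeq2 (adjusted P = 0.0379) and without animals 12 and 22 (edgeR adjusted P = 0.00803). The differences in A + T vs. T (0.19 ± 0.26) and in A + T vs. S (-0.49 ± 0.25) were less than 2 standard errors from 0. Without animals 12 and 22 they were 0.63 ± 0.21 (edgeR adjusted P = 0.102) and -0.24 ± 0.18.

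Igf1r, which encodes the IGF-1 receptor, was at 55.3, 45.5 and 49.6 CPM in S, at 92.2, 82.7 and 125 in T, and at 63.4, 75.2 and 59.5 in A + T. The 3 groups did not overlap: S was lowest, A + T stood between, and T was highest. Igf1r was 0.99 ± 0.15 higher in T than S on the log2 scale (edgeR adjusted P = 0.00171), a call that held with each animal left out. It was 0.60 ± 0.15 lower in A + T than T (edgeR adjusted P = 0.0466; log2 fold change -0.60), a call held in only 2 of the 9 fits with 1 animal left out, those without T animal 12 or A + T animal 21 (-0.72 to -0.41 over the 9, adjusted P 0.0359 to 0.112). Against S, the log2 fold change of A + T was 0.40 ± 0.15, with an adjusted P-value of 0.130 in edgeR's test.

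Insr, which encodes the insulin receptor, was at 285, 242 and 272 CPM in S, at 414, 375 and 403 in T, and at 322, 364 and 243 in A + T. Every T library was above every S and every A + T library, whereas A + T and S overlapped. The log2 fold change in T vs. S was 0.58 ± 0.13 (edgeR adjusted P = 0.0124), and the call was lost only without S animal 3 (adjusted P = 0.0558) among the fits with 1 animal left out. The log2 fold change of A + T was -0.36 ± 0.13 against T (edgeR adjusted P = 0.144) and 0.22 ± 0.13 against S, and the latter passed without A + T animal 22 (edgeR adjusted P = 0.0388), the library with the lowest Insr level of its group, and likewise without animals 12 and 22 (0.37 ± 0.09, edgeR adjusted P = 0.0241).

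**Figure D3:**
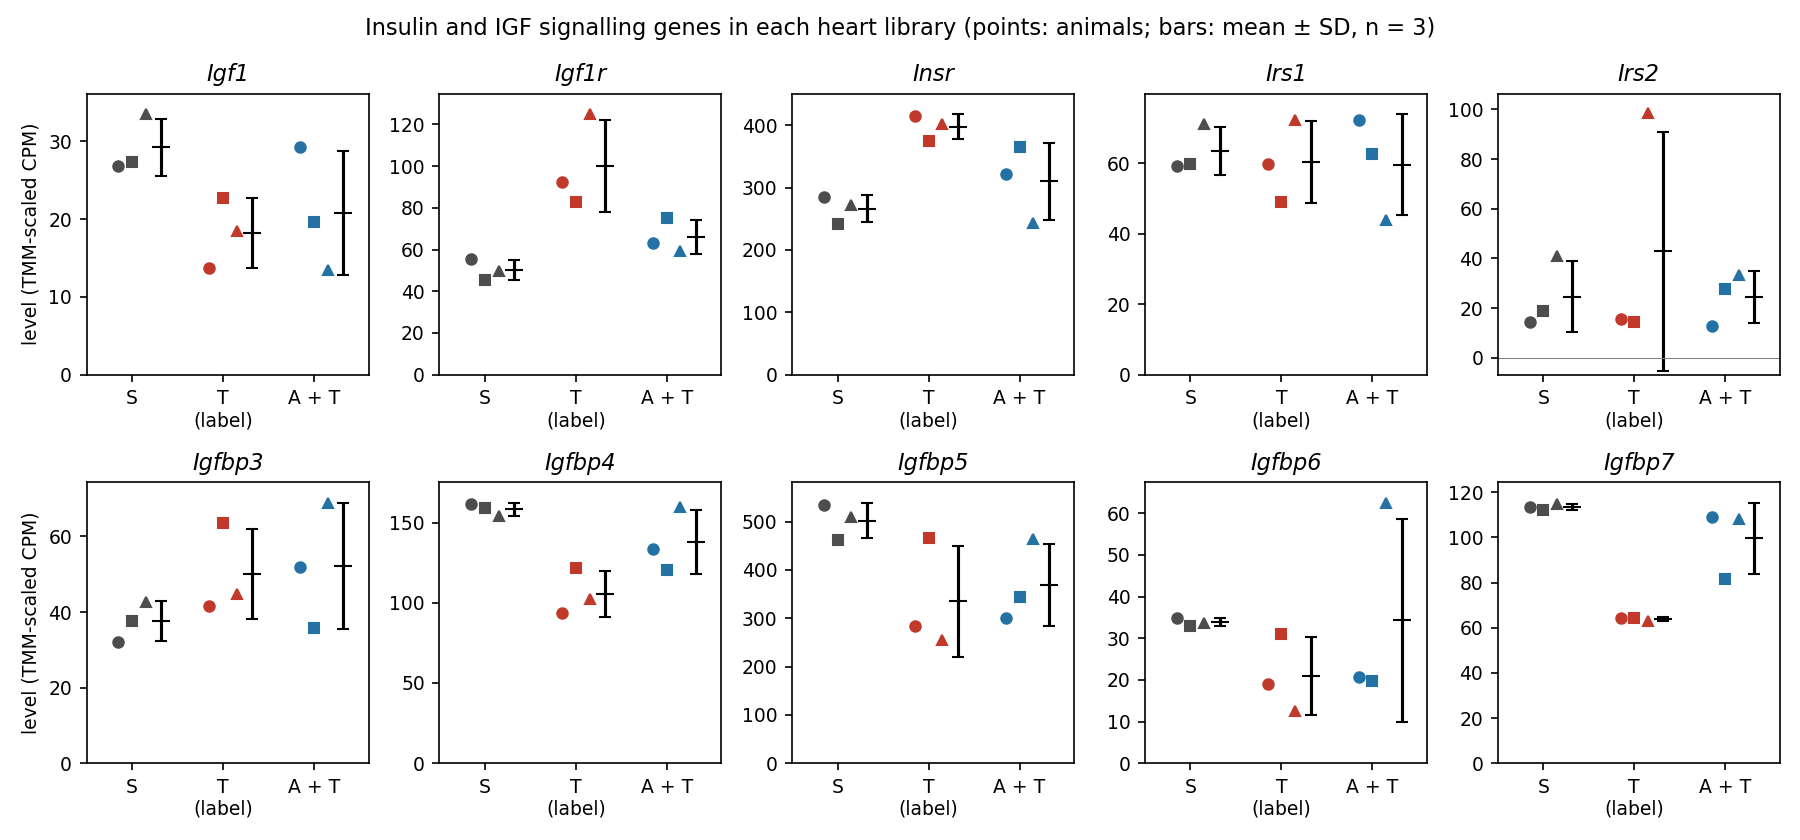
TMM-scaled CPM of each of the 10 genes in every library (points; S, T and A + T, 3 animals each) with the mean and SD of each group. T stands above S for Igf1r and Insr and below S for Igf1, Igfbp4, Igfbp6 and Igfbp7, and the wide Irs2 bar of T, which reaches below 0, rests on 1 library at 98.5 CPM.

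The receptors were set beside the docking proteins that carry their signal. Irs1 was at 59.2, 59.7 and 71.2 CPM in S, at 59.7, 49.1 and 72.3 in T, and at 72.1, 62.6 and 44.0 in A + T. The 3 groups overlapped throughout, and the log2 fold changes were -0.07 ± 0.18 in T vs. S, -0.02 ± 0.18 in A + T vs. T and -0.09 ± 0.18 in A + T vs. S. None passed (edgeR adjusted P 0.809, 0.973 and 0.800), nor did any without animals 12 and 22 (log2 fold changes 0.065, 0.032 and 0.10).

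Irs2 was the most variable of the 10 genes within S and within T. Its levels were 14.3, 18.7 and 40.9 CPM in S, 15.8, 14.5 and 98.5 in T, and 12.9, 27.6 and 33.3 in A + T. In each group the highest library stood well above the lowest, 2.86-fold in S, 6.79-fold in T and 2.58-fold in A + T. T animal 15 alone set the direction of T vs. S, where the log2 fold change was 0.78 ± 0.70 with it and -0.68 without it, and no Irs2 difference passed (edgeR adjusted P 0.454, 0.557 and 0.994 in the 3 comparisons). Without animals 12 and 22 the log2 fold change was 1.21 ± 0.63 in T vs. S, -1.48 ± 0.72 in A + T vs. T and -0.27 ± 0.67 in A + T vs. S, and none passed. That library also had the highest Igf1r and the lowest Igfbp5 and Igfbp6 levels of the 9.

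Of the 5 binding proteins, 2 passed as lower in T than S, none passed as higher, and 4 had a negative log2 fold change (median -0.58), beside 1466 of 13364 genes that passed as lower and 6733 with a negative value. In A + T vs. T all 5 were positive, 1 of them passing, against 3.09% of all genes (median 0.38), and in A + T vs. S none passed, against 8.31% of all genes (median -0.19).

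Igfbp7 had the least spread of the 10 within S and within T. It was at 114, 112 and 115 CPM in S and at 64.4, 64.5 and 62.9 in T, so that the SD was 1.5 around 113 in S and 0.867 around 63.9 in T. In A + T it was at 109, 81.6 and 108 CPM, above every T library and below every S library. Igfbp7 fell by 0.83 ± 0.11 on the log2 scale in T vs. S (log2 fold change -0.83, edgeR adjusted P = 0.000709), in all fits with 1 animal left out. It rose by 0.64 ± 0.11 in A + T vs. T (edgeR adjusted P = 0.00980), a call lost only without T animal 11 (adjusted P = 0.0536). Treated animals differed from S by a log2 fold change of -0.19 ± 0.10 (edgeR adjusted P = 0.283).

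Igfbp4, a binding protein that restrains IGF action and is cut by the protease PAPP-A, was at 162, 159 and 154 CPM in S, at 93.3, 121 and 103 in T, and at 134, 121 and 160 in A + T. T lay below S without overlap, and A + T touched both other groups. Igfbp4 was lower in T than S by a log2 fold change of -0.58 ± 0.12 (edgeR adjusted P = 0.00713), a call that held with each animal left out. Its difference in A + T vs. T was 0.38 ± 0.12 (edgeR adjusted P = 0.0881), and it passed in DESeq2 (adjusted P = 0.0358) and without animals 12 and 22 (edgeR adjusted P = 0.0308). Against S, the log2 fold change of A + T was -0.20 ± 0.12 (edgeR adjusted P = 0.320), and -0.31 ± 0.08 without these animals (edgeR adjusted P = 0.0350).

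Igfbp5, a binding protein that attaches to extracellular matrix, was abundant in every library. It was at 535, 462 and 509 CPM in S, at 284, 466 and 255 in T, and at 300, 344 and 464 in A + T. The library of T animal 12 lay within the S range and those of the other T animals far below it. The log2 fold change in T vs. S was -0.58 ± 0.22 and missed the threshold (edgeR adjusted P = 0.0841), but was -0.89 and passed without animals 12 and 22 (edgeR adjusted P = 0.000164), as it also did in DESeq2 (adjusted P = 0.0259). Between T and A + T it was 0.14 ± 0.22, and 0.25 ± 0.10 without these animals, and neither passed. For A + T vs. S it was -0.44 ± 0.22 (edgeR adjusted P = 0.228), and -0.64 without animals 12 and 22 (edgeR adjusted P = 0.00347).

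Igfbp6, which prefers IGF-2 over IGF-1, was at 34.8, 32.9 and 33.8 CPM in S, at 19.1, 31.0 and 12.5 in T, and at 20.6, 19.8 and 62.5 in A + T. The highest library of T and the highest of A + T were those of animals 12 and 22. The log2 fold change in T vs. S was -0.68 ± 0.43 (edgeR adjusted P = 0.282), and without animals 12 and 22 it was -1.07 (edgeR adjusted P = 0.000765). In A + T vs. S it was 0.02 ± 0.42, and -0.74 without these animals (edgeR adjusted P = 0.0118). Against T, A + T stood at 0.70 ± 0.43, and at 0.33 ± 0.16 without them, and neither passed.

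Igfbp3, the main carrier of IGF-1 in blood, was at 32.1, 37.7 and 42.7 CPM in S, at 41.6, 63.7 and 44.9 in T, and at 51.8, 35.7 and 68.9 in A + T. All groups overlapped. Its log2 fold changes were 0.42 ± 0.23 in T vs. S, 0.06 ± 0.23 in A + T vs. T and 0.48 ± 0.23 in A + T vs. S, and none passed. Here too animals 12 and 22 had the highest level of their groups, and without them the log2 fold changes were 0.21 ± 0.16, 0.02 ± 0.17 and 0.23 ± 0.16.

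Several binding proteins are known products of cardiac fibroblasts and vessel walls, so the markers of those cells were set beside them. All 8 fibroblast markers passed as lower in T vs. S (median log2 fold change -1.37), against 1466 of 13364 genes. In A + T vs. T, 6 of 8 passed as higher (median 1.02), against 3.09% of all genes. None of the 8 passed in A + T vs. S, against 8.31% of all genes. Their summed level was 1813 to 1988 CPM in S, 939 to 1071 in T and 1302 to 2055 in A + T. All 7 endothelial markers had a negative log2 fold change in T vs. S and 3 passed as lower, against 6733 and 1466 of 13364 genes. Their sums were 1025 to 1238 CPM in S, 748 to 926 in T and 943 to 1252 in A + T. In A + T vs. T all 7 were positive and 1 passed as higher, against 6905 and 413 of 13364 genes. Of 6 mural (vessel wall) markers, 4 passed as lower in T vs. S, against 1466 of 13364 genes. In A + T vs. T, 3 mural markers were positive and 3 negative, with 1 passing as higher, against 3.09% of all genes. In A + T vs. S, 1 of the 7 endothelial and 1 of the 6 mural markers passed as lower, against 486 of 13364 genes. Igfbp7 came to 5.71% to 6.34% of the fibroblast marker sum in S, 6.02% to 6.86% in T and 5.31% to 7.75% in A + T, ranges that overlapped. Against the endothelial marker sum it came to 9.04% to 11.2% in S and 6.80% to 8.61% in T, which did not overlap, and to 7.47% to 11.6% in A + T. Against the cardiomyocyte marker sum Igfbp7 came to 0.139% to 0.165% in S and 0.0903% to 0.112% in T, again without overlap. The 8 cardiomyocyte markers did not move together in T vs. S, with 4 positive and 4 negative. Of these, 2 passed as higher (Tnnt2 and Pln) and 1 as lower (Actc1), against 1371 and 1466 of 13364 genes. Igfbp4 came to 8.13% to 8.49% of the fibroblast marker sum in S, 9.94% to 11.3% in T and 6.50% to 11.4% in A + T, so T lay above S on this measure. Its shares of the endothelial marker sum, 12.9% to 15.02% in S and 11.1% to 15.4% in T, overlapped. So did its shares of the cardiomyocyte marker sum, 0.198% to 0.228% in S and 0.135% to 0.210% in T. The part of these cells in the results was not tested.

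Igf1r and Insr moved the opposite way to the fibroblast and endothelial markers in T vs. S and in A + T vs. T. Igf1r came to 2.32% to 2.78% of the fibroblast marker sum in S and to 7.72% to 12.6% in T, and Insr to 12.4% to 14.99% in S and 35.1% to 44.1% in T. Against the cardiomyocyte marker sum, which was 69592 to 81589 CPM in S and 57807 to 69725 in T, Igf1r came to 0.0650% to 0.0713% in S and to 0.133% to 0.179% in T. That sum joins markers that moved both ways in T vs. S.

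For Igfbp6 the markers of mesothelium, a cell layer that covers the heart and other organs, were set beside it. Their sum was 79.0 to 86.4 CPM in S, 57.5, 105 and 28.8 in T, and 34.1, 58.3 and 154 in A + T. As for Igfbp6, the libraries of T animal 12 and A + T animal 22 were highest in their groups and that of T animal 15 was lowest of all. The libraries of T animal 12 and A + T animal 22 were also those with high Scgb1a1 (79.9 and 1078 CPM). Which organ the mesothelial transcripts came from was not tested. Igfbp6 came to 38.4% to 42.8% of the sum in S, 29.4% to 43.5% in T and 33.9% to 60.3% in A + T. Of the 5 mesothelial markers, none passed in any comparison, and their part in the Igfbp6 values was not tested.

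**Figure D4:**
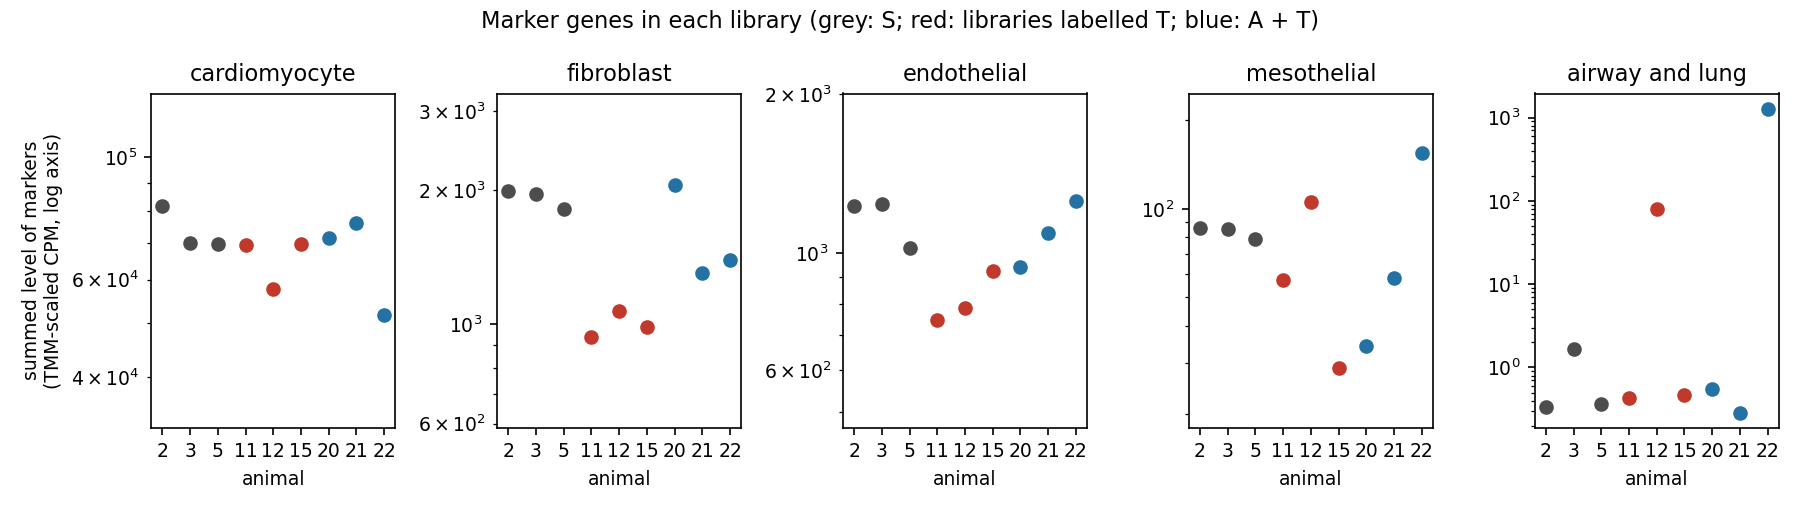
Summed TMM-scaled CPM of the marker genes of 5 cell types (1 panel each, every panel with its own log axis) in each of the 9 libraries, by animal number and coloured by group. Fibroblast markers are lowest in T (939 to 1071 CPM). The airway and lung sum covers the 2 of 5 listed genes that were counted, Scgb1a1 and Sftpb. It is high only in T animal 12 (80.5 CPM) and A + T animal 22 (1277 CPM). In T animal 12 nearly all of it is Scgb1a1 (79.9 CPM, with Sftpb at 0.594), whereas both are high in A + T animal 22 (1078 and 199 CPM).

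The rest of the pathway was read from a list of 77 other genes, of which 71 were counted and 68 tested. In T vs. S, 17 of the 68 passed, 10 higher and 7 lower (median log2 fold change 0.04), against 21.2% of all genes. In A + T vs. T 3 passed, 1 higher and 2 lower (median -0.03), against 5.88% of all genes. The count in A + T vs. S was 9, with 5 higher and 4 lower (median -0.02), against 8.31% of all genes. The genes Ins1, Ins2, Igfbp1, Igfbp2, Irs4 and Insrr were not analysed here, and Igfbpl1, Irs3 and Pappa2 were below the filter.

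Among other ligands, binding proteins and their proteases, Igf2, the second IGF ligand, fell from 70.2 ± 17.9 CPM in S to 31.9 ± 18.3 in T (log2 fold change -1.16 ± 0.34, edgeR adjusted P = 0.0353), although the groups overlapped. The call was lost without S animal 3, S animal 5, T animal 11 or T animal 12 (adjusted P 0.0841 to 0.126), and without animals 12 and 22 together (0.0556). Htra1, a secreted protease that cuts binding proteins, fell from 68.8 ± 2.96 to 45.1 ± 4.60 CPM (-0.61 ± 0.10) and stood at 47.1 ± 4.48 in A + T. Pappa and its inhibitors Stc1 and Stc2 did not pass (-0.47 ± 0.28, 1.12 ± 0.47 and -0.37 ± 0.16), and Stc1 alone of these was higher in T. Igf2r, the clearance receptor for IGF-2, was at 298 ± 47.4 CPM in S and 328 ± 27.3 in T (0.14 ± 0.19).

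Of 12 adaptors and receptor-binding inhibitors tested, 1 passed in T vs. S, against 21.2% of all genes. The gene that passed was Socs3, a Stat3-induced inhibitor of cytokine and insulin receptor signalling. Socs3 rose from 7.80 ± 1.55 CPM in S to 24.1 ± 8.51 in T (log2 fold change 1.65 ± 0.28, edgeR adjusted P = 0.00296), with 17.9 ± 5.64 in A + T. Every T and every A + T library was above every S library, and T and A + T overlapped. It was the largest log2 fold change of the 68 genes in T vs. S.

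Of 11 genes of PI3-kinase and Akt, 4 passed in T vs. S, against 21.2% of all genes. Pdpk1, the kinase that activates Akt, was at 77.1, 69.9 and 67.1 CPM in S, at 97.8, 95.8 and 93.0 in T, and at 74.4, 71.8 and 67.5 in A + T. It rose in T vs. S (0.42 ± 0.08, edgeR adjusted P = 0.00407) and fell by 0.42 ± 0.08 in A + T vs. T (log2 fold change -0.42, edgeR adjusted P = 0.0153), and A + T and S did not differ beyond their spread (-0.00 ± 0.08). Without T animal 11 the call in A + T vs. T was lost (adjusted P = 0.0696). Akt2, the isoform most tied to insulin action, rose in T (0.36 ± 0.08). Pik3r3, a regulatory subunit of PI3-kinase, fell (-0.44 ± 0.11), a call lost without S animal 3, S animal 5 or T animal 11 (adjusted P 0.0572 to 0.0670).

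Of 8 lipid phosphatases and other brakes on Akt, 4 passed in T vs. S, against 21.2% of all genes. Pik3ip1, which inhibits PI3-kinase, and Inpp5k, a phosphoinositide phosphatase, rose (0.89 ± 0.21 and 0.44 ± 0.10), and Inppl1, another such phosphatase, and Ppp2r5b, a subunit of protein phosphatase 2A, fell (-0.48 ± 0.11 and -0.36 ± 0.09). The same 4 genes passed with the same signs in A + T vs. S, a comparison with the same S libraries (0.94 ± 0.21, 0.37 ± 0.10, -0.41 ± 0.11 and -0.46 ± 0.09), against 8.31% of all genes. None of the 4 passed in A + T vs. T, against 5.88% of all genes. Over 19 alternatives, Inpp5k passed in A + T vs. S in 6, Inppl1 in 10, Pik3ip1 in 15 and Ppp2r5b in 17. The Pik3ip1 call in T vs. S was lost without T animal 11 (edgeR adjusted P = 0.0541), and that of Ppp2r5b without S animal 2 (0.0506).

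Of 18 genes of the mTOR arm, 4 passed in T vs. S, against 21.2% of all genes. Eif4ebp1, a repressor of cap-dependent translation that mTORC1 switches off, rose from 54.2 ± 1.78 CPM in S to 98.0 ± 11.5 in T (log2 fold change 0.86 ± 0.12, edgeR adjusted P = 0.00130) and stood at 78.0 ± 13.1 in A + T. Its relative Eif4ebp2 fell (-0.24 ± 0.08). Sesn1, a stress-induced inhibitor of mTORC1, and Rps6kb1, the S6 kinase, rose (0.58 ± 0.12 and 0.38 ± 0.07). Between T and A + T, Rps6kb1 fell by 0.26 ± 0.07 (log2 fold change -0.26, edgeR adjusted P = 0.0443), a call lost in each fit with 1 animal left out (0.0637 to 0.130). The Eif4ebp2 call was lost in 7 of those 9 fits.

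Of 8 Akt substrates, 1 passed in T vs. S, against 21.2% of all genes. Foxo3, a transcription factor held out of the nucleus by Akt, rose (0.44 ± 0.14, edgeR adjusted P = 0.0462), a call lost in 6 of the 9 fits with 1 animal left out. Of 3 genes of glucose uptake, Slc2a1, the basal glucose transporter, rose from 14.1 ± 1.19 CPM in S to 22.2 ± 3.00 in T (0.66 ± 0.14, edgeR adjusted P = 0.00746). Slc2a4, the insulin-responsive transporter of muscle, was at 459 ± 4.12 CPM in S and 455 ± 8.31 in T (-0.01 ± 0.09).

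**Figure D5:**
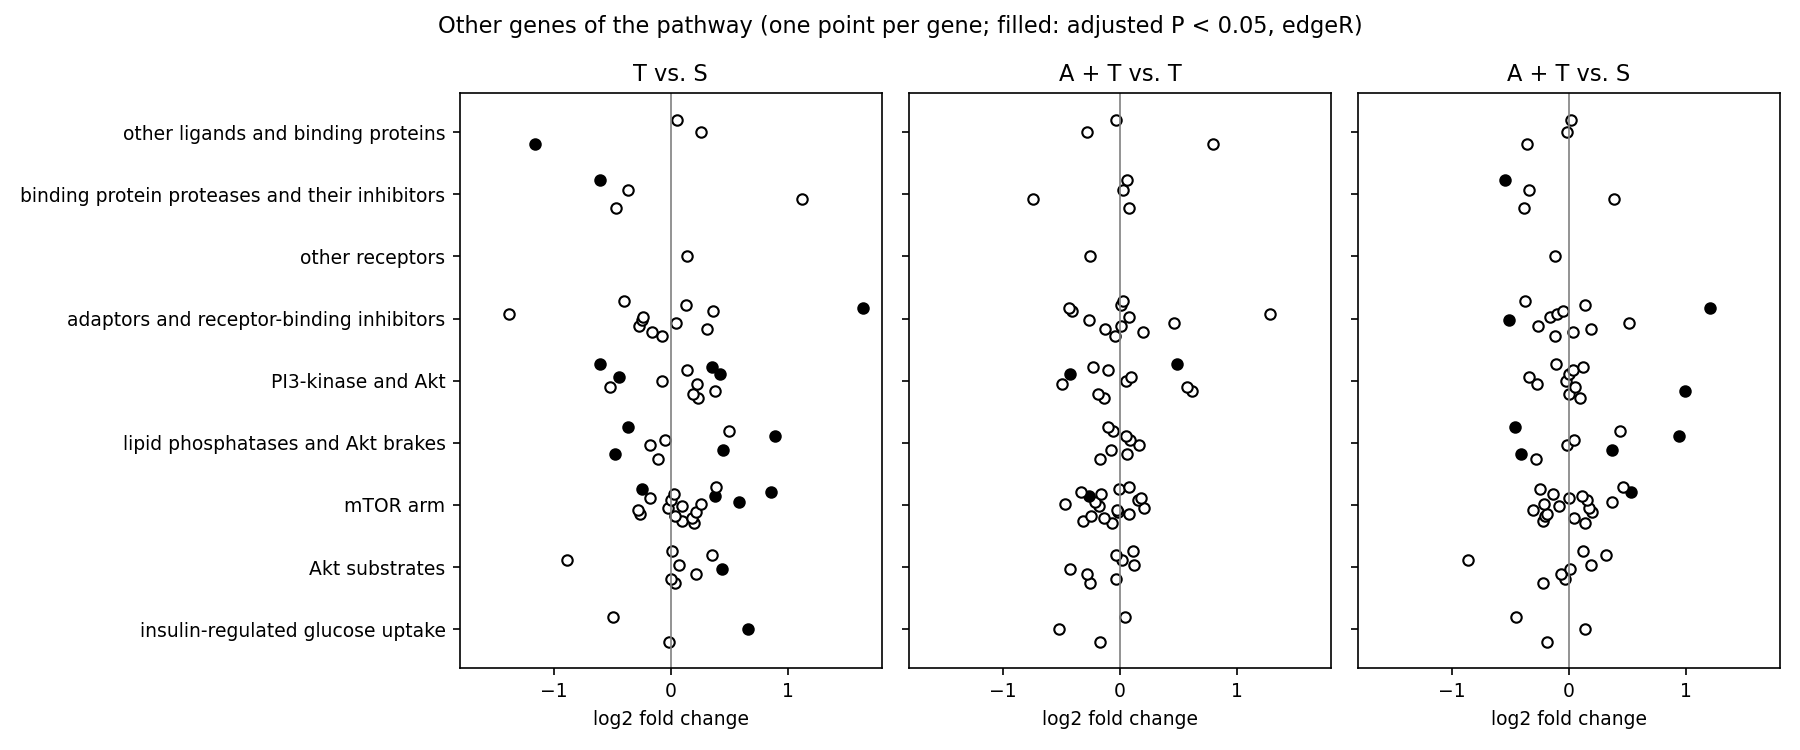
Log2 fold change (x axis) of the 68 other pathway genes tested, 1 point a gene, in rows by role and in a panel for each comparison. Filled points pass an adjusted P-value under 0.05 in edgeR's test. In T vs. S the filled points run from Igf2 (-1.16) to Socs3 (1.65).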

How the data were processed

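RNA of 9 hearts (3 each of S, T and A + T) was sequenced as 75-base paired ends. The authors aligned reads to mm10 with STAR, counted uniquely mapped reads on refGene genes by strand with featureCounts, and deposited raw counts per gene together with normalized log2 values. The deposited log2 values differed from log2 CPM by a constant for each gene (median SD 0.00268), as for scaling by gene length. The tool that gave them is not given in the sources used here. Libraries held 12392222 to 19732471 counts. A floor of 3 counts was 0.152 to 0.242 CPM and covers counting error only, as reads carried no molecular identifiers. Rn45s took 4.57% to 19.6% of the counts.

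A gene was dropped where over 4 libraries lay below 0.5 CPM. Counts were fitted with the quasi-likelihood test of edgeR 4.0.16 in R 4.3.3, scaled by TMM, all 9 libraries in 1 fit, and P-values were adjusted by Benjamini-Hochberg over all genes tested. Standard errors are the absolute log2 difference divided by the root of the F statistic. Alternatives were DESeq2 1.42.0, limma 3.58.1 (voom, and on the deposited log2 values), other scalings, filters and thresholds, only the groups compared, and each animal left out. All 10 genes are named, with pathway genes passing an adjusted P-value under 0.05 in T vs. S or A + T vs. T, and the 3 genes most alike for each of the 10 that passed there. Of these, 1 pathway gene is counted but not reported here by name. Members and lists were chosen with earlier results of these data known. Promoters are RefSeq sequences of GRCm38.p6, and gene positions are from GENCODE M21.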

Additional observations from a re-analysis of the deposited data

How the results depend on the processing

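No paired analysis was possible because each animal has its own number in the labels and no number is shared between groups. Of the 10 genes, 4 passed in T vs. S and 3 to 6 with 1 animal left out, 2 passed in A + T vs. T and 0 to 2 with 1 left out, and 0 passed in A + T vs. S and 0 to 1 with 1 left out. With ACVR2B/Fc set against T, 1 passed with upper-quartile scaling, with only the groups compared and in limma on the deposited log2 values. Leaving out animals 12 and 22 together, an alternative chosen after seeing the data, gave 7, 3 and 4 in the 3 comparisons, beside 3531, 875 and 1259 of all 13364 genes. Of the other pathway genes, 17 passed in T vs. S, or 8 with library size only. The comparison of A + T with T had 3, or 5 in DESeq2, 0 with library size only, 1 with only the groups compared, in limma on the deposited log2 values or without animals 12 and 22, and 0 to 4 with 1 animal left out. For A + T vs. S the count was 9, or 3 with library size only, and 0 to 9 with 1 left out (0 without S animal 2, 2 without S animal 3 or 5, 4 without A + T animal 21). Calls over all 13364 genes shifted as well. In the 3 comparisons they were 2837, 786 and 1110 in the main fit, and 1637, 438 and 555 with library size only. For A + T vs. T they were 1198 in DESeq2 and 217 with only the groups compared. With 1 animal left out they were 1765 to 3786, 130 to 1006 and 269 to 1086 in the 3 comparisons (269 without S animal 2). The cause of these shifts was not tested.

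Signs turned only for log2 fold changes of the 10 genes that did not pass. For Irs1 these were 0.065 in T vs. S, 0.032 in A + T vs. T and 0.10 in A + T vs. S without animals 12 and 22, and in A + T vs. T 0.030 with library size only and 0.031 with upper-quartile scaling. For Irs2 in A + T vs. S they were -0.0051 in DESeq2, -0.047 with library size only and -0.27 without animals 12 and 22. For Igfbp6 in A + T vs. S they were -0.19 in limma-voom, -0.20 in limma on the deposited log2 values and -0.74 without animals 12 and 22. With 1 animal left out, T vs. S ran from -0.21 to 0.058 for Irs1 and from -0.68 to 1.35 for Irs2. A + T vs. T ran from -0.15 to 0.42 for Igf1, -0.18 to 0.16 for Irs1, -1.20 to 0.70 for Irs2, -0.20 to 0.27 for Igfbp3, -0.061 to 0.45 for Igfbp5 and -0.071 to 1.11 for Igfbp6. A + T vs. S ran from -0.25 to 0.10 for Irs1, -0.27 to 0.57 for Irs2 and -0.74 to 0.31 for Igfbp6. Depth was not limiting for the 10 genes, whose counts per library were 134 to 9682.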

Other observations

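The genes whose levels over the 9 libraries were most like those of each called gene, by Pearson's r of log2(CPM + 0.5) against 13363 other genes, are given as a description, since the libraries fall into 3 groups and share them. For Igf1r they were Aox1 (0.980), Pcnt (0.980) and Eef2k (0.973), and for Insr they were Emc1 (0.985), Vps13c (0.974) and Dhx37 (0.973). For Igfbp4 they were Mturn (0.981), Cd55 (0.980) and Praf2 (0.971). For Igfbp7 they were Sparc (0.991), which encodes a matrix-binding secreted glycoprotein, Cby1 (0.991) and Olfml3 (0.980).

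Of the 9 other pathway genes that passed in A + T vs. S, 2 had passed in neither other comparison and are named after their values were seen. Pik3cd, the PI3-kinase catalytic subunit of leukocytes, averaged 3.88 CPM (SD 0.55) among S, 5.04 (SD 0.59) among T and 7.74 (SD 2.12) among A + T libraries (log2 fold change 0.99 ± 0.21, edgeR adjusted P = 0.0202). Beside it, 6 of 8 macrophage markers passed as higher in A + T vs. S, against 624 of 13364 genes, with a summed level of 198 to 212 CPM in S and 259 to 346 in A + T. The other markers were Cx3cr1 (0.53 ± 0.29) and Mrc1, which went the other way (-0.36 ± 0.16), and neither passed. Grb10, an adaptor that inhibits insulin and IGF-1 receptors, was lower in A + T than S (-0.51 ± 0.12, edgeR adjusted P = 0.0331), at 80.9 ± 14.4 against 115 ± 5.1 CPM. Over 19 alternatives, the call in A + T vs. S held in 16 for Pik3cd and in 14 for Grb10. The part of macrophages in the Pik3cd difference was not tested.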
